A study of Mus musculus with 42 samples.

Results

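The 30 genes described here are the spliceosome and SR protein genes of the deposited RNA-seq table of mouse preimplantation embryos, out of 15737 genes with a symbol listed once. They were taken as the rows whose symbol starts with Snrp, Sf3a, Sf3b, Srsf or Prpf, without Snrpn and without symbols marked as pseudogenes, which gave 10 Snrp, 3 Sf3a, 4 Sf3b, 5 Srsf and 8 Prpf genes. Of the 44 protein-coding GENCODE M21 genes that meet this rule, 29 were among the rows used, which run over chromosomes 1 to 11. The other 15 were not analysed here, and the remaining member, Snrpert, is annotated as a processed pseudogene. The study asked how the making of NAD+ bears on the first wave of embryonic transcription. RNA was sequenced from ICR embryos in 9 groups: early 2-cell embryos at 34 h after hCG, late 2-cell embryos at 48 h and 4-cell embryos at 58 h. Embryos grew in KSOM medium, and all were wild type. Controls are labelled untreated, while the methods name 0.05% DMSO as the negative control for inhibitors and scrambled siRNA with Trim21 mRNA as that for the injection. Late 2-cell embryos were controls, or were given 0.01 µM FK866, FK866 with 10 µM NMN, 10 nM TSA, or a zygote injection of Sirt1 siRNA with Trim21 mRNA and SIRT1 antibody. The 4-cell embryos were controls, or were given FK866 or FK866 with NMN. FK866 blocks NAMPT, an enzyme of NAD+ salvage, NMN is the product of that enzyme, and TSA inhibits histone deacetylases. Each library held 3 pooled embryos, so a value is a mean over embryos and cells.

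The spliceosome removes introns from pre-mRNA. It is assembled from small nuclear ribonucleoprotein particles, most of which hold an RNA in a ring of Sm proteins together with proteins of their own. The U1 particle marks the start of an intron and the U2 particle the branch site. SR proteins bind exons and help these particles to settle on nearby splice sites. A fertilised oocyte starts with stored maternal RNA, much of which is lost during the 2-cell stage while the embryo's own genes are switched on.

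The table gave FPKM, which scales fragments by exon length and by sequencing depth, with 1 column per group. Values multiplied by exon length fell on whole reads of 2 libraries in 7 columns and of 1 library in 2 columns, those with the headers 4-cell FK866+NMN and 4-cell FK866, although the labels give each group 2 samples. The 16 libraries separated in this way had totals from 3169677 to 10003481 reads. Within a column, A stands for the deeper library and B for the shallower. All 30 members were separated in every column. In 5 columns the group named by the header is not the one that the study's own tables point to. Of 47 values above 0 listed for the 4-cell control, 47 equalled the column headed late 2-cell TSA, all 84 for 4-cell FK866 the column headed late 2-cell Sirt1, and all 80 for 4-cell FK866+NMN the column headed 4-cell control. The TSA genes moved as listed, against late 2-cell control, in the column headed 4-cell FK866 in 1203 of 1203 cases. In the early 2-cell column 1096 did. The Sirt1 genes moved as listed in the column headed 4-cell FK866+NMN in 773 of 821 cases. This margin was narrower, with 703 in the late 2-cell FK866 column and 684 in early 2-cell, and 442 in the column headed late 2-cell Sirt1. Sirt1 itself, the gene targeted, was at 52.7 FPKM in the column headed late 2-cell Sirt1 (32.4 and 73.1 in libraries A and B). It was at 11.3 in the column headed 4-cell FK866+NMN, against 76.4 in late 2-cell control. This low level was not particular to that column, with Sirt1 at 7.61 in the column headed 4-cell FK866 and 9.84 in early 2-cell. The 14 2-cell markers found in the rows, Zscan4 genes among them, summed to between 23.6 and 65.4 FPKM in the columns headed late 2-cell TSA, late 2-cell Sirt1 and 4-cell control, and to between 268 and 637 in the other 6. Header and tables thus name different groups for these 5 columns. They are labelled here by their headers only to identify them, and each comparison that uses them is given by both readings. Of 10 maternal and oocyte markers, 8 were lower past 2-fold than in late 2-cell control in the column headed late 2-cell TSA, 7 in that headed late 2-cell Sirt1 and 8 in that headed 4-cell control, with 0 higher in each. Btg4 went from 1461 FPKM in late 2-cell control to 22.5, 26.2 and 46.5 in these columns. At most 1 of 6 cumulus and granulosa markers reached 1 FPKM in any column, with Cyp19a1 at 8.12 FPKM in the column headed 4-cell FK866 the highest.

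Promoters are shown for 3 members that rose from early to late 2-cell, Snrpg, Srsf6 and Snrpd2, and for Snrpb2, which was lower, so that the stretch before each start can be read beside these changes. These 4 were chosen after their values were seen. The RefSeq promoters are on GRCm38.p6 and run from 250 bases before to 50 bases after the start. They were found for 24 of the 30 members, with 29 promoters in all. Each is on the plus strand and written 5′ to 3′, and capitals mark matches on either strand to any of 6 motifs. The GC box is spelled GGGCGG here, the CCAAT box by its own name, the ETS core as CCGGAAG and the CRE as TGACGTCA, while the YY1 core is spelled AAGATGG and the TATA box is taken as TATAAA.
Snrpg, chr6:86371290-86371589: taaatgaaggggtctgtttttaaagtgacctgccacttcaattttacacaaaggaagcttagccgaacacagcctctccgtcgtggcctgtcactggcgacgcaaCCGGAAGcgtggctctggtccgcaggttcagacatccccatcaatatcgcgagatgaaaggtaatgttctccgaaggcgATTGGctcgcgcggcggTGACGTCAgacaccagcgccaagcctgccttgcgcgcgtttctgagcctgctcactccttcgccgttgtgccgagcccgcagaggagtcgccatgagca
Srsf6, chr2:162931258-162931557: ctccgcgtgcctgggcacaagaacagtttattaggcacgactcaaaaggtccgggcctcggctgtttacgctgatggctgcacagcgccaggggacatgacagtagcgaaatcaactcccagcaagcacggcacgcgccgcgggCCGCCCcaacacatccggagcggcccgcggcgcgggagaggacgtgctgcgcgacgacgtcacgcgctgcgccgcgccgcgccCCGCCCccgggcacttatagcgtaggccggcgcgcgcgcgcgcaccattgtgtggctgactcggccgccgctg
Snrpd2, chr7:19149588-19149887: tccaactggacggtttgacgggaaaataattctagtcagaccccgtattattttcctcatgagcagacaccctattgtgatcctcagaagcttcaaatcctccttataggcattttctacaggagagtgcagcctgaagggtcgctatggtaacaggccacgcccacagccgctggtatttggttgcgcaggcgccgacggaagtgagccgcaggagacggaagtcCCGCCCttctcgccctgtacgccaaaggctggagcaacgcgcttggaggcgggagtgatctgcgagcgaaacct
Snrpb2, chr2:143062819-143063118: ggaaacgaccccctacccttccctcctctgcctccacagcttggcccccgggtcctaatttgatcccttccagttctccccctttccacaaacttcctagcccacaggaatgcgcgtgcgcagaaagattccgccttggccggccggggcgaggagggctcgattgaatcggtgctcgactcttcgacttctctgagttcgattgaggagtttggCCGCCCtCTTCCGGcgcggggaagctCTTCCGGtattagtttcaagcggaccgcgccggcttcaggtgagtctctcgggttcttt
Snrpg held 1 ETS core, 1 CCAAT box and 1 CRE, Srsf6 held 2 GC boxes and Snrpd2 held 1. Snrpb2 held 1 GC box and 2 ETS cores. Over the members' 29 promoters, 13 (44.8%) held an ETS core, against 8.86% of the 32851 promoters of all genes, and 19 (65.5%) held a GC box, against 35.7%. A CCAAT box was in 8 (27.6%) against 37.4%, a CRE in 2 (6.90%) against 1.79%, a YY1 core in 2 (6.90%) against 6.34% and a TATA box in 2 (6.90%) against 13.6%. Some genes have several promoters in this table, and no match overlapped another in the 4 printed promoters. A match describes the letters only.

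FPKM is per length, so the levels of different genes can be set side by side. By the mean level over the 9 columns, the highest Snrp gene was Snrpg (ENSMUSG00000057278.8, chr6:86371304-86379328 on GRCm38), a protein of the Sm ring, at 209 FPKM, and the lowest was Snrpd3, of the same ring, at 7.56. In the SF3A complex of the U2 particle, Sf3a3 was highest at 25.2 and Sf3a2 lowest at 0.274 FPKM, with 0 reads in 10 of 16 libraries. In the SF3B complex, which holds the branch site, Sf3b4 was highest at 41 and Sf3b3 lowest at 3.45. Of the SR proteins, Srsf6 (chr2:162931528-162937121) was highest at 42.9 and Srsf4 lowest at 0.503 FPKM, at 0 in 9 of 16 libraries. Of the Prpf genes, which code for proteins of the U4/U6.U5 particle and of later steps, Prpf38a was highest at 29.3 and Prpf3 lowest at 4.6. The range over the 9 column means, on the log2(FPKM + 1) scale, was widest for Snrpb at 6.74, Sf3a3 at 5.53 and Prpf6 at 4.79, and narrowest for Srsf4 at 1.39, Prpf18 at 1.41 and Snrpf at 1.53.

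**Figure D1:**
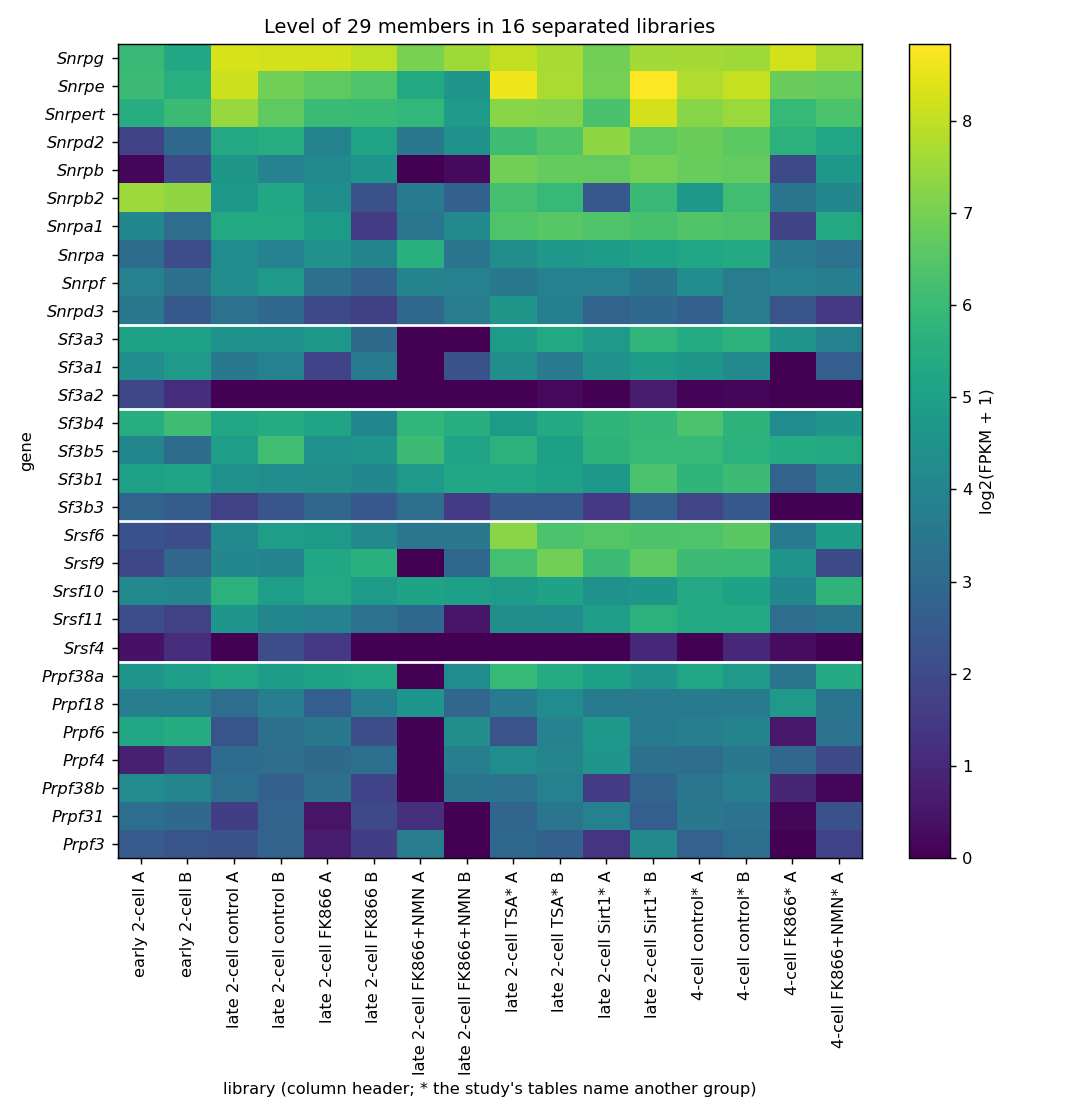
Heat map of log2(FPKM + 1) for 29 of the 30 members (rows, grouped by symbol start and ordered by mean level) in the 16 separated libraries (columns, named by header, with an asterisk where the study's tables name another group). Snrpg and Snrpe are bright in nearly all libraries, Sf3a2 and Srsf4 are dark in nearly all, and FK866+NMN library A has 7 members at 0 reads.

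Snrpert needs care. Its 279-base transcript on chromosome 2 matched the best Snrpe transcript at 276 of 279 bases (98.9%), so reads of the Sm ring gene Snrpe (chromosome 1) and of this retrocopy may have been counted for either. Snrpe was at 158 FPKM and Snrpert at 104 over the 9 columns, and both are reported as uncertain.

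The summed level of the 30 members was 704 and 673 FPKM in the early 2-cell libraries, 1267 and 1067 in late 2-cell control, 878 and 739 with FK866, and 583 and 564 with FK866+NMN. Late 2-cell control lay above the other 3 columns in both libraries. The sums were 1781 and 1520 in the column headed late 2-cell TSA, 1228 and 2039 in that headed late 2-cell Sirt1, 1575 and 1637 in that headed 4-cell control, 764 in that headed 4-cell FK866 and 809 in that headed 4-cell FK866+NMN. The Snrp genes made up most of each sum, with 942 and 706 FPKM in late 2-cell control. These are bulk values, given as shares of each library, so fewer cells that hold a transcript and less of it per cell cannot be told apart.

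From early to late 2-cell, the time of major genome activation, some Sm ring genes (Snrpb, Snrpd2, Snrpg), the SR protein genes Srsf6 and Srsf11 and Sf3b5 rose, and Sf3a2 fell. The ring genes Snrpd3 and Snrpf and the SR protein gene Srsf4 were within 2-fold, at -0.02, 0.98 and 0.56 (log2). Members were counted past 2-fold on the log2(FPKM per library + 1) scale, over genes with at least 1 FPKM in either column. Log2 fold changes and limma estimates are on that scale throughout, while a change given as a plain fold is a ratio of mean FPKM. All 30 were tested, 14 (46.7%) were higher and 4 (13.3%) lower, against 32.2% and 31.7% of all 9514 genes tested, and the median log2 fold change was 0.77 against -0.00316. By limma on the separated libraries, adjusted over 11621 genes, 6 members rose and 1 fell, beside 15.0% of all genes called in either direction. For each gene the fit pools the spread between libraries over all columns, not only over the 2 compared. The study calls the replicates of a group biological, while the sources used here do not tie libraries to separate collections. These p-values therefore rest on a pooled spread between libraries, part of which may be technical.
Snrpb (chr2:130171414-130179403), which codes for the SmB proteins of the ring, was at 0.0897 and 2.83 FPKM in early 2-cell libraries A and B and at 24.7 and 14.1 in late 2-cell control, a rise by limma of 3.27 (SE 0.56, adjusted p = 0.0039). Snrpd2, of the ring, was at 2.51 and 6.91 and then 38.8 and 44.1, and rose by 3.01 (SE 0.55, adjusted p = 0.00542). Snrpg, whose promoter is printed above, was at 62.9 and 36.9 and then 311 and 301, and rose by 2.64 (SE 0.34, adjusted p = 0.000733). All 3 ring genes had both late libraries above both early ones. How many of all genes separate in this way was not counted, here or in the comparisons below, so statements on overlap describe the values only. The SR protein gene Srsf6 was at 3.72 and 3.36 and then 17.6 and 29.8, and rose by 2.40 (SE 0.42, adjusted p = 0.0044). Sf3b5, the small subunit of SF3B, was at 15.7 and 7.62 and then 29.6 and 68.3, and rose by 1.94 (SE 0.52, adjusted p = 0.0319). Srsf11, another SR protein gene, was at 3.28 and 2.32 and then 23.9 and 15.7, and rose by 2.44 (SE 0.70, adjusted p = 0.0438). Both genes of this last pair lost the call when single libraries were left out, Sf3b5 with a highest adjusted p of 0.179 by limma and Srsf11 with 0.191. The other 5 calls held with each of the 4 libraries left out.

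Snrpe and Prpf4, the latter of the U4/U6 particle, completed the 8 members that were highest past 2-fold. Snrpe was at 65.5 and 46.1 and then 281 and 121 FPKM, 3.61-fold higher, and Prpf4 at 0.719 and 2.2 and then 7.51 and 7.96, 5.3-fold higher, with adjusted p = 0.0963 and 0.246 by limma. Of the other higher members, Snrpa1, Srsf9, Snrpa, Snrpert and Srsf10 had log2 fold changes from 1.17 to 1.67.
Of the 4 lower members, Snrpb2, the B″ protein of the U2 particle, had the highest early level of all Snrp genes. It was at 183 and 164 FPKM in early 2-cell and 25.1 and 37.9 in late 2-cell control, 5.52-fold lower, with an adjusted p of 0.167 by limma. Prpf6, which bridges parts of the tri-snRNP, was at 38 and 43 and then 3.85 and 8.59, 6.51-fold lower, with an adjusted p of 0.195 by limma. In both genes the early libraries stood apart from the late ones without overlap. Sf3a2 fell: it had 2.8 and 1.22 FPKM in early 2-cell and 0 reads in both late control libraries, where 3 reads per library would be 0.222 FPKM, so that it was at least 9.05-fold lower (-1.54 (SE 0.31, adjusted p = 0.00874) by limma). Prpf38b, a relative of the tri-snRNP protein Prpf38a, was at 18.4 and 15.2 and then 8.34 and 5.49, a log2 fold change of -1.17 that came to -0.93 without late control library B. The 12 members within 2-fold ran from -0.85 for Sf3a1 to 0.98 for Snrpf. By group, 7 of 10 Snrp and 4 of 5 Srsf genes were higher, against 0 of 3 Sf3a, 1 of 4 Sf3b and 2 of 8 Prpf genes.

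**Figure D2:**
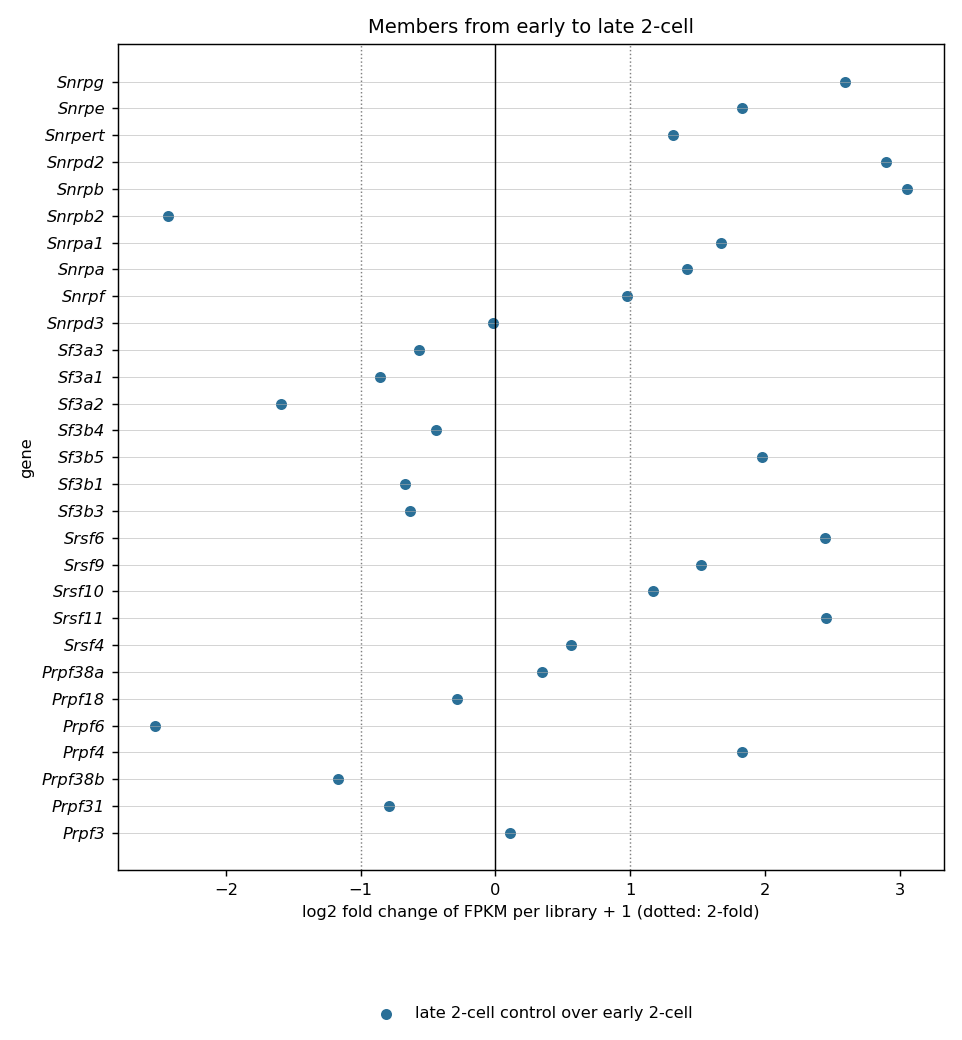
Log2 fold change (x axis, log2(FPKM per library + 1), dotted lines at 2-fold) of late 2-cell control over early 2-cell embryos for 29 of the 30 members (y axis). Snrp and Srsf genes lie mostly on the right, led by Snrpb at 3.05, and Prpf6 and Snrpb2 lie farthest on the left at -2.52 and -2.43.

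With FK866 at the late 2-cell stage, several snRNP genes were lower than in the controls, and the SR protein gene Srsf9 was higher. Of 29 members tested, 1 was higher and 9 (31.0%) were lower, against 18.1% and 20.0% of all 9022 genes tested, with a median log2 fold change of -0.47 against -0.06. By limma 2 of 30 members had an unadjusted p under 0.05, beside 909 of 11621 genes. After adjustment 0 members were called, beside 0.404% of all genes. None of the FK866 differences that follow therefore passed the test.
Snrpf, of the Sm ring, was at 19.1 and 25.9 FPKM in control libraries A and B and 8.55 and 5.71 with FK866, a limma difference of -1.54 (SE 0.43, adjusted p = 0.257). Snrpa1, the A′ protein of the U2 particle, was at 40.4 and 40.6 and then 27 and 1.98, and its log2 fold change of -1.42 came to -0.57 without FK866 library B. Both FK866 libraries lay below both controls for each of these genes.
Snrpd3 was at 8.73 and 6.7 and then 2.95 and 2.18 FPKM, 3.01-fold lower. Snrpb2 had a log2 fold change of -1.33, which came to -0.61 without FK866 library B, where it was at 3.57 FPKM. The value of Prpf3, of the U4/U6 particle, was -1.32, and -0.94 without FK866 library A or -0.99 without control library B. Snrpe had -1.14, and -0.42 without control library A, while Sf3b5 had -1.12, and -0.42 without control library B. Snrpert was at -1.12. Srsf9 was the member past 2-fold on the higher side, with 15.9 and 14.7 FPKM in the controls and 38.7 and 47.2 with FK866, 2.81-fold higher, without overlap, and an adjusted p of 0.586 by limma. Snrpb, Srsf6 and Snrpg, which had risen from early to late 2-cell, had log2 fold changes of 0.10, -0.10 and -0.15 with FK866.

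With NMN added to FK866, many members were lower than in the controls, led by Sf3a3 and Snrpb. Of 29 tested against the controls, 0 were higher and 15 (51.7%) lower, beside 21.0% and 36.2% of all 8639 genes tested, with a median log2 fold change of -1.14 against -0.35. By limma 2 members fell and 0 rose, with 3.49% of all genes called. The FK866+NMN libraries differed more from each other than those of any other column: 69.0% of genes at 1 FPKM or more differed by over 2-fold between A and B, against 21.7% to 43.5% in the other 6 columns with 2 libraries, and the median difference over the members was 1.02 against 0.24 to 0.67 (log2). Library A held reads for 5429 of 14924 genes, the fewest of the 16, and 10 of 30 members had at most 3 reads in it, against 0 to 6 in the other 15. How far this bears on the lower levels was not tested. The spread used by limma is pooled over all columns, so it may be too small for this one.
Snrpb had 0 reads in library A and 2 in library B, which is 0 and 0.189 FPKM, against 24.7 and 14.1 in the controls and 17.7 and 24 with FK866 alone. Against the controls it fell by 4.18 (SE 0.56, adjusted p = 0.00605) and against FK866 it fell by 4.31 (SE 0.56, adjusted p = 0.00767), both by limma. Sf3a3 had 1 and 0 reads, against 21.5 and 21.6 FPKM in the controls and 25.3 and 7.29 with FK866. It fell by 4.47 (SE 0.56, adjusted p = 0.00444) against the controls and fell by 3.85 (SE 0.56, adjusted p = 0.0108) against FK866, by limma. Both genes were low in both FK866+NMN libraries, and these 4 calls held with each library left out. Sf3a1, of the same complex, was at 0.0192 and 3.62 FPKM, against 10.9 and 13.6 in the controls, with an adjusted p of 0.101 by limma.

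Snrpe was at 39.8 and 23.4 FPKM with FK866+NMN, 6.37-fold below the controls, with an adjusted p of 0.0559 by limma. Srsf11 was at 6.73 and 0.42, 5.54-fold below, with an adjusted p of 0.0755 by limma. Srsf9 was at 0 and 6.67, 4.58-fold below the controls. Snrpb2 had a log2 fold change of -1.80, and Prpf38a one of -1.76, which came to -0.83 without FK866+NMN library A, where it had 0 reads. The other lower members, among them Snrpert, Prpf31, Snrpa1, Srsf4, Snrpd2 and Srsf6, were between -1.67 and -1.14. Srsf4 had 0 reads in both FK866+NMN libraries and in control library A, so its value rests on control library B. The 14 members within 2-fold included all 4 Sf3b genes, whose median log2 fold change was 0.39, and Snrpa, at 48.1 and 9.59 FPKM.
Against FK866 alone, 3 of 28 members tested were higher and 8 (28.6%) lower, beside 18.9% and 33.3% of all 8605 genes, and the medians were -0.23 and -0.24. By limma 3 members fell, with 2.09% of all genes called. They were Snrpb, Sf3a3 and Srsf9. Srsf9 had 38.7 and 47.2 FPKM in FK866 and 0 and 6.67 in FK866+NMN libraries and fell by 3.98 (SE 0.80, adjusted p = 0.0374) by limma, and lost the call without either FK866 library (highest adjusted p = 0.105 by limma). The 3 higher members were Prpf3 at 1.62, Snrpd3 at 1.58 and Sf3b5 at 1.16. Prpf3 turned to -1.21 and Sf3b5 came to 0.63 without FK866+NMN library A, in which Prpf3 was at 12.2 FPKM against 0 in B. Of the other lower members, Prpf38a (-1.82) and Sf3a1 (-1.46) came to -0.90 and -0.75 without library A, and Sf3a1 to -0.29 without FK866 library B. Srsf11 (-1.43) came to -0.67 without library B, and Srsf6 (-1.05) to -0.68 without FK866 library A. Snrpe was at -1.49 and lay between -1.91 and -1.17 in these repeats. The count past 2-fold went from 11 to 18 without FK866+NMN library B and to 17 without FK866 library A, and after centring on the median of all genes 6 were higher and 7 lower. The shares of all genes in these repeats are not given here. The comparisons of FK866 and of FK866+NMN with the controls share the control libraries.

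**Figure D3:**
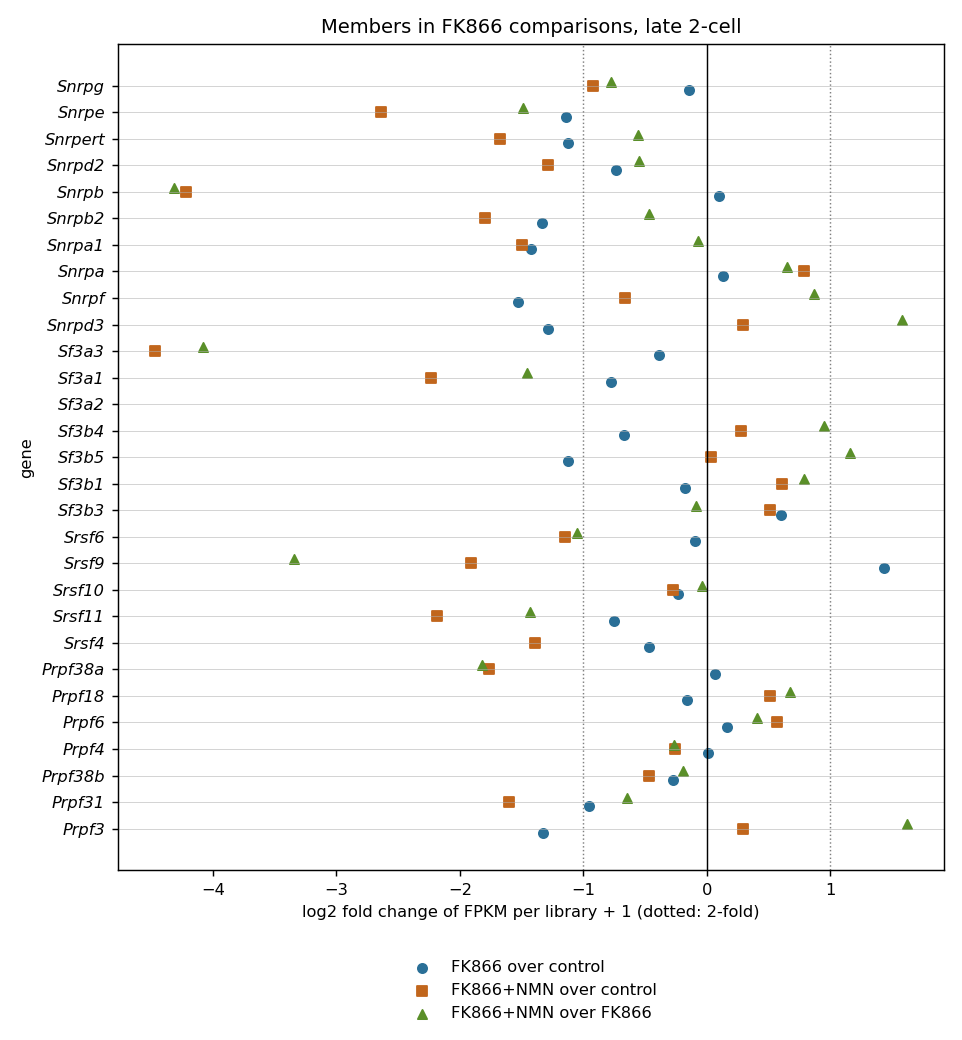
Log2 fold changes (x axis, log2(FPKM per library + 1), dotted lines at 2-fold) of 29 of the 30 members (y axis) at the late 2-cell stage for FK866 over control (circles), FK866+NMN over control (squares) and FK866+NMN over FK866 (triangles). Snrpb and Sf3a3 lie beyond -4 for both FK866+NMN comparisons and within 2-fold for FK866 over control, and Srsf9 is at 1.43 with FK866 alone. Sf3a2, under 1 FPKM in all 3 columns, has no point.

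The columns headed late 2-cell TSA, late 2-cell Sirt1 and 4-cell control were alike, with correlations of log2(FPKM + 1) between 0.865 and 0.926 over the 15 pairs of their 6 libraries and between 0.471 and 0.800 with the other 10 libraries. These are correlations across 14924 genes within the same table, given as a description. In all 3 columns Snrpb, Srsf6 and Srsf9 were the members farthest above late 2-cell control.
Snrpb was at 123 and 106 FPKM under the header late 2-cell TSA, 105 and 127 under late 2-cell Sirt1 and 108 and 104 under 4-cell control, against 24.7 and 14.1 in late 2-cell control. Srsf6 was at 151 and 78.9, 87.3 and 80.7 and 82.6 and 93.2, against 17.6 and 29.8. Srsf9 was at 71.7 and 123, 64.6 and 98.1 and 65.8 and 64.4, against 15.9 and 14.7. For each of these genes all 6 libraries lay above both controls. They were picked as the members farthest above, and the share of all genes separated in this way was not counted.

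From late 2-cell to 4-cell control by the headers, 11 of 29 members tested (37.9%) were higher and 0 lower, beside 24.2% and 33.8% of all 8868 genes, with a median log2 fold change of 0.56 against -0.21. By limma 2 members rose, with 6.62% of all genes called: Snrpb by 2.44 (SE 0.56, adjusted p = 0.0319) and Srsf6 by 1.89 (SE 0.42, adjusted p = 0.0286). Each call was lost in 3 of 4 repeats with a library left out, 0 members being called without either 4-cell library and 1 without either control library, with highest adjusted p of 0.133 and 0.116 by limma. Srsf9 had a log2 fold change of 2.02, Sf3b1, the largest SF3B protein, 1.48, Snrpd2 1.31, Snrpa, the A protein of the U1 particle, 1.2, Prpf31, of the U4/U6 particle, 1.13 and Sf3a3 1.06. Prpf31 came to 0.65 without late control library A, and Sf3a3 to 0.93 without 4-cell library B. Snrpa1, Srsf11 and Prpf6 lay at 1.02 each. By the tables, where the column headed late 2-cell TSA is the 4-cell control, 7 of 29 (24.1%) were higher and 1 (3.45%) was lower, beside 23.2% and 41.3% of 8648 genes. The same 2 members rose by limma, Snrpb by 2.55 (SE 0.56, adjusted p = 0.0176) and Srsf6 by 2.20 (SE 0.42, adjusted p = 0.0096), with 10.9% of all genes called. Leaving out single libraries took the Snrpb call in 3 of 4 repeats, and the Srsf6 call in 1, without library A of the column headed TSA (highest adjusted p = 0.0959 and 0.0608 by limma).

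By its header, this second pair of columns is TSA over control at the late 2-cell stage. Beside Snrpb and Srsf6, the members past 2-fold there were Srsf9 at 2.59 (adjusted p = 0.0751 by limma), Snrpd3 at 1.19, Snrpa1 at 1.09, Snrpb2 at 1.06 and Prpf4 at 1.03. Without library A of the column headed TSA, Snrpd3 came to 0.67, Snrpb2 to 0.88 and Prpf4 to 0.88, and without control library A the last 2 came to 0.80 and 0.99. After centring on the median of all genes, -0.44 here, 14 members were higher and 0 lower. Centring shifts all genes alike, and the share of all genes after it is not given here. Srsf4 was the lower member, with 0 reads in both libraries of that column and 0 and 3.24 FPKM in the controls, so that the groups overlapped and the difference rests on control library B. By the tables, TSA over control compares the column headed 4-cell FK866 with late 2-cell control. It has 1 library, in which 1 of 29 members was higher and 17 (58.6%) lower, beside 30.1% and 29.7% of 9420 genes, with a median of -1.09 against 0.07. The limma fit, in which this lone library is assumed to vary like those of the other columns, called 1 member, lower, with 8.51% of all genes called. This was Sf3a1, at 0 reads against 10.9 and 13.6 FPKM in the controls, at least 118-fold lower (-3.72 (SE 0.94, adjusted p = 0.038) by limma), and the call was lost without either control library (highest adjusted p = 0.102). The next lowest were Snrpa1 at -3.57, Prpf3 at -2.53, Snrpb at -2.38, Prpf6 at -2.27, Prpf31 at -2.23, Sf3b3 at -2.09 and Prpf38b at -2.02, and the higher member was Prpf18, a factor of the later catalytic step, at 1.25.

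Sirt1 over control at the late 2-cell stage gave, by the headers, 7 of 29 members (24.1%) higher and 0 lower, beside 24.3% and 36.6% of 8779 genes, with a median of 0.52 against -0.28. By limma Snrpb rose by 2.56 (SE 0.56, adjusted p = 0.0227) and Srsf6 by 1.83 (SE 0.42, adjusted p = 0.0279), with 8.29% of all genes called, and each call was lost in 3 of 4 repeats with a library left out, with 0 members called without library B of the column headed Sirt1 and 1 without any other (highest adjusted p = 0.104 and 0.0973). Srsf9 was at 2.34, Snrpd2 at 1.62, Prpf6 at 1.4, Sf3b1 at 1.31 and Prpf31 at 1.06. Without library A of the column headed Sirt1, Prpf6 came to 0.75 and Prpf31 to 0.32, and without its library B, Sf3b1 came to 0.29. Without control library A, Prpf6 came to 0.99 and Prpf31 to 0.59. The count of members past 2-fold was 13 without either library of the column headed Sirt1, 11 without control library B, and 14, all higher, after centring on the median of all genes. The shares of all genes in these repeats are not given here. By the tables the Sirt1 column is the one headed 4-cell FK866+NMN, with 1 library. There 0 of 29 members were higher and 7 (24.1%) lower, beside 16.4% and 28.2% of 8622 genes, with a median of -0.74 against -0.21, and by limma 0 members were called, with 3 at an unadjusted p under 0.05 and 0.972% of all genes called. Prpf38b was at 0.104 FPKM in this library against 8.34 and 5.49 in the controls. Sf3b3, a scaffold protein of SF3B, was at 0.0265 against 2.34 and 4.18, Srsf9 at 3.07 against 15.9 and 14.7 and Snrpd3 at 1.77 against 8.73 and 6.7. Srsf4, Sf3a1 and Prpf4 had log2 fold changes of -1.39, -1.09 and -1.06. The 5 comparisons with late 2-cell control in these paragraphs share its 2 libraries.

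**Figure D4:**
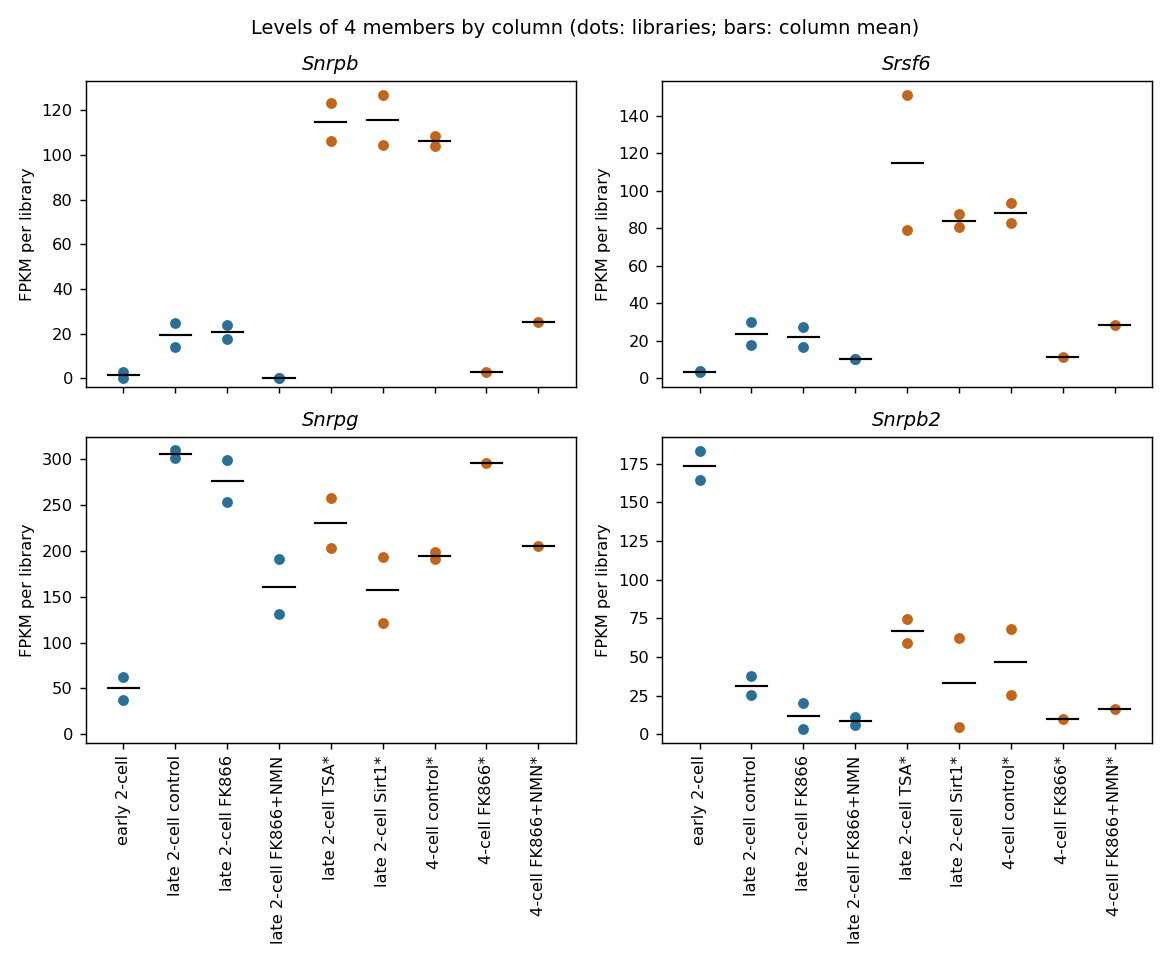
FPKM per library (y axis) of Snrpb, Srsf6, Snrpg and Snrpb2 in the 9 columns (x axis), with a dot for each library and a bar for the column mean. Columns on which header and tables name the same group are blue and the other 5, marked with an asterisk, are orange. Snrpb and Srsf6 are highest in the columns headed late 2-cell TSA, late 2-cell Sirt1 and 4-cell control, Snrpb2 is highest in early 2-cell embryos, and Snrpg in late 2-cell control.

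The FK866 comparison at the 4-cell stage depended on the reading. By the headers, which set 1 library against 2, 1 of 28 members was higher and 22 (78.6%) were lower, beside 41.8% and 32.9% of 9368 genes, with a median of -1.62 against 0.42. Markers moved with this comparison: 7 of 10 maternal and oocyte markers were higher and 2 lower, with a median of 3.31 and Zar1 at 4.27 and Btg4 at 4.12, and 8 of 14 2-cell markers were higher and 0 lower. Their part in the members' values was not tested. The FK866 arm is 1 library, assumed in limma to vary like those of the other columns. In that fit 7 members fell and 0 rose, with 20.2% of all genes called. Snrpb was at 2.92 FPKM against 108 and 104 and fell by 4.77 (SE 0.69, adjusted p = 0.0014). Srsf6 was at 11.4 against 82.6 and 93.2 and fell by 2.84 (SE 0.52, adjusted p = 0.00472). Sf3b1 was at 6.03 against 53.3 and 65 and fell by 3.09 (SE 0.60, adjusted p = 0.00625). Sf3a1 had 0 reads against 24.4 and 17.7 FPKM, at least 202-fold lower (-4.45 (SE 0.94, adjusted p = 0.00951) by limma). Leaving out either 4-cell control library sets 1 library against 1. The calls of Snrpb, Srsf6, Sf3b1 and Sf3a1 held there, while those of Snrpa1, Prpf31 and Sf3b4, given next, were lost in both repeats. Snrpa1 was at 2.49 against 84.6 and 82 and fell by 4.59 (SE 1.02, adjusted p = 0.0122). Prpf31 had 2 reads, or 0.0785 FPKM, against 10.7 and 9.27 and fell by 3.35 (SE 0.89, adjusted p = 0.0255). Sf3b4, the highest SF3B gene, was at 18.6 against 80.1 and 51 and fell by 1.73 (SE 0.54, adjusted p = 0.049). Prpf6 and Prpf3 had log2 fold changes of -3.29 and -2.99, Prpf3 with 0 reads, and the remaining lower members lay between -2.67 and -1.03. Prpf18 was higher, at 1.1.
By the tables, which set the columns headed late 2-cell Sirt1 and late 2-cell TSA against each other, 1 of 28 members was higher and 2 (7.14%) were lower, beside 21.2% and 13.4% of 7420 genes, with a median of -0.04 against 0.10. Of the maternal and oocyte markers 7 of 10 were higher and 0 lower, and of 11 2-cell markers tested 5 were higher and 1 lower. By limma 1 of 30 members had an unadjusted p under 0.05, beside 655 of 11621 genes. After adjustment 0 members were called, and 0.103% of all genes were. Snrpd3 was at 24.8 and 12.9 FPKM in the table-read controls and 6.19 and 7.15 with FK866, a limma difference of -1.31 (SE 0.58, adjusted p = 0.846). Prpf38b was at 9.22 and 13.9 and then 1.9 and 6.13, and Srsf11 at 19.5 and 19 and then 29.7 and 50.2, the higher one. Snrpb and Srsf6 had log2 fold changes of 0.01 and -0.45.

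**Figure D5:**
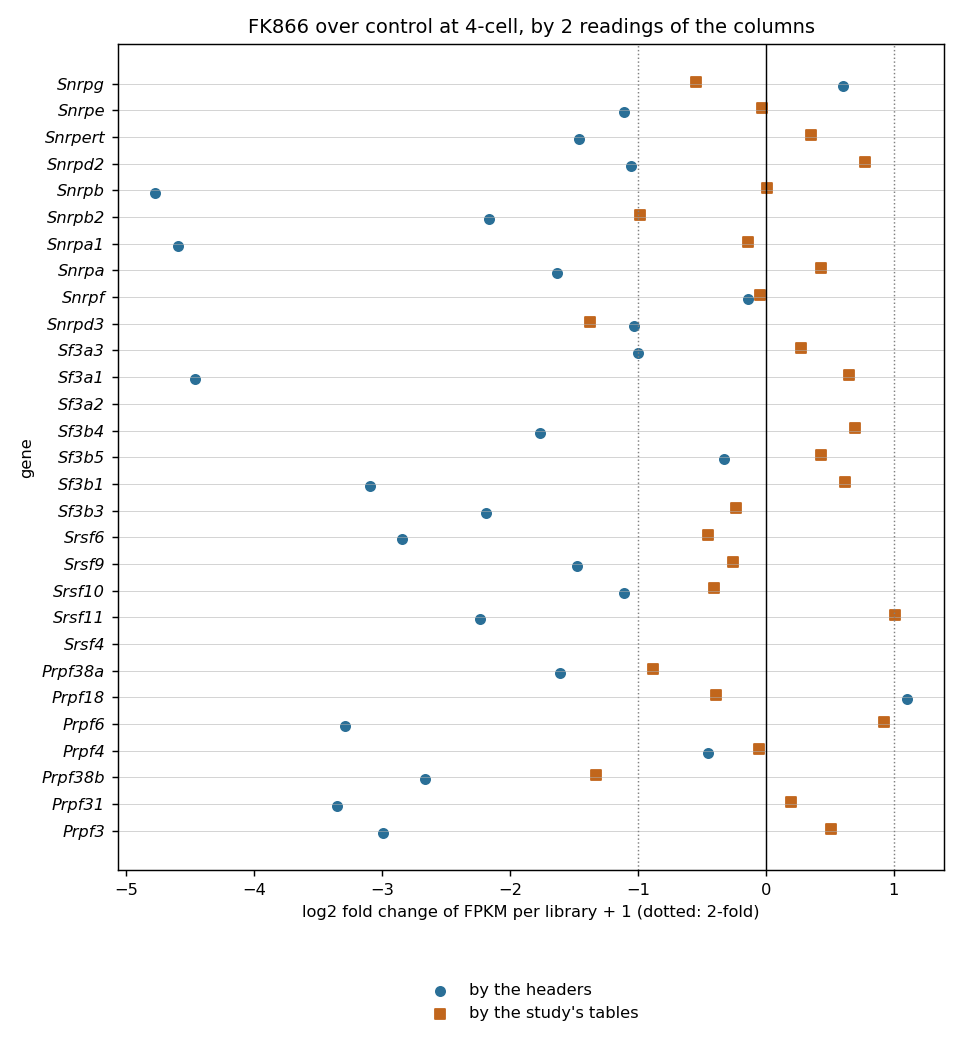
Log2 fold change (x axis, log2(FPKM per library + 1), dotted lines at 2-fold) of FK866 over control at the 4-cell stage for 29 of the 30 members (y axis), with columns read by the headers (circles) and by the tables of the study (squares). By the headers 21 of those drawn lie left of -1, and by the tables of the study 2 do, Snrpd3 and Prpf38b. Genes under 1 FPKM in both columns have no point.

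FK866+NMN over FK866 at the 4-cell stage compares 1 library with 1 by the headers. Of 26 members tested, 9 (34.6%) were higher and 2 (7.69%) lower, beside 25.0% and 34.7% of 8929 genes, with a median of 0.37 against -0.29. With 1 library in each column, the spread within a column cannot be measured, so the differences that follow are given without a test. Snrpa1 was at 2.49 and then 40.6 FPKM, Prpf6 at 0.498 and then 9.38, and Snrpb at 2.92 and then 25. Sf3a1 went from 0 reads to 5.23 FPKM, at least 50.2-fold higher, and Prpf3 from 0 reads to 2.4, at least 21.2-fold higher. Prpf31, Prpf38a and Srsf10 had log2 fold changes of 2.11, 1.98 and 1.63, and Srsf6 one of 1.25. The lower members were Srsf9, at 22.7 and then 3.07 FPKM, and Prpf18, at 25.9 and then 9.82.
By the tables, which set the column headed 4-cell control over that headed late 2-cell Sirt1, 1 of 28 members was higher and 0 lower, beside 14.8% and 11.5% of 7754 genes, with a median of 0.05 against 0.02. By limma 0 members had an unadjusted p under 0.05, beside 414 of 11621 genes. After adjustment 0 members were called, with 0.129% of all genes called. The higher one was Prpf38b, at 1.9 and 6.13 FPKM with FK866 and 10.2 and 12.6 with FK866+NMN, with no overlap. The other 27 members lay between -0.75 for Prpf4 and 0.68 for Srsf10.

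Other splicing genes, from lists made with earlier results of these data known, were counted past 2-fold in the same way. The percentages of all genes given for each comparison apply to them too, and for them only counts and log2 fold changes are given. From early to late 2-cell, 4 of 7 genes of snRNP assembly, which load the Sm ring onto its RNA, were higher and 1 lower, with Tgs1 at 4.12 and Wdr77 at 3.74. Of 22 Prp19 complex, helicase and step genes 7 were higher and 5 lower, with Ppie at 3.43, and of 19 other snRNP and U2 auxiliary genes 6 were higher and 5 lower, with Snrnp35 at 3.86 and Snrnp25 at 3.45. Of 9 LSm genes, whose proteins form a ring like that of the Sm proteins, 1 was higher and 3 lower, with Lsm3 at -3.77 and Lsm6 at -3.09. Of 10 SR protein kinases and SR-related genes 3 were higher and 4 lower, with Tnpo3 at 2.46 and Tra2a at 1.98, of 25 hnRNP and other regulators 4 and 4, with Elavl2 at -2.55 and Khdrbs1 at 2.37, and of 9 exon junction and decay genes 4 and 2, with Magohb at -5.33 and Smg5 at 2.93.
With FK866 at late 2-cell, 0 of 19 other snRNP genes were higher and 4 lower, with Pdcd7 at -2.15 and Usp39 at -1.40, and of 22 Prp19 and step genes 1 was higher and 3 lower, with Crnkl1 at -2.05 and Cwc22 at -1.51. In the LSm list 1 of 9 was higher and 3 lower, with Lsm7 at -1.64 and Lsm6 at 1.34, and in the assembly list 1 of 7 was higher and 2 lower, with Snupn at -1.37 and Tgs1 at -1.23. The remaining lists had 0 higher and 2 lower of 10 SR kinase and SR-related genes (Clk1 at -1.29 and Luc7l2 at -1.08), 2 and 3 of 25 hnRNP and other regulators (Tial1 at -1.63 and Elavl2 at 1.53) and 0 and 2 of 8 exon junction genes (Smg5 at -1.32 and Magoh at -1.11).
With FK866+NMN against the controls, 0 of 19 other snRNP genes were higher and 12 lower, with Snrnp35 at -5.52 and Dnajc8 at -2.80, and of 21 Prp19 and step genes 3 were higher and 11 lower, with Cwc22 at -3.10 and Bud31 at -2.81. The LSm list had 3 of 9 higher and 2 lower, with Lsm6 at 3.20 and Lsm4 at -2.78, and the assembly list 0 of 7 higher and 3 lower, with Tgs1 at -2.43 and Clns1a at -2.26. Of 10 SR kinase and SR-related genes 1 was higher and 4 lower, with Srrm1 at -2.84 and Clk1 at -2.69, of 25 hnRNP and other regulators 2 and 3, with Elavl2 at 2.02 and Hnrnph3 at 2.01, and of 8 exon junction genes 0 and 4, with Rbm8a at -1.83. Snrnp35, of the minor U11/U12 particle, was listed at 0 with FK866+NMN, against 45.0 FPKM in the controls and 41.6 with FK866.
At the 4-cell stage FK866 over control by the headers left 13 of 19 other snRNP genes and 16 of 27 hnRNP and other regulators lower, with 2 and 8 higher. By the tables of the study 0 of 19 and 0 of 25 were lower, with 1 and 4 higher. In the remaining lists by the headers, 3 of 24 Prp19 and step genes were higher and 10 lower. Of 9 LSm genes 2 were higher and 3 lower, and of 7 assembly genes 1 and 5. Of 10 SR kinase and SR-related genes 2 were higher and 4 lower, and of 9 exon junction genes 1 and 4.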

How the data were processed

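RNA-seq was made from 18 samples in 9 groups. After trimming (Trim Galore) and alignment (HISAT2, mm10), the authors counted reads per gene with featureCounts and deposited FPKM per gene, 1 column per group. The 24 H3K27ac samples of the series were not analysed here, and 0 value columns were left unmapped.

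FPKM multiplied by GENCODE M21 exon length fell on whole reads for 97.6% to 97.8% of values, which gave the libraries and their totals. Genes with a symbol listed once and at least 1 FPKM in either column entered a comparison, and log2(FPKM per library + 1) was compared between columns, past 2-fold, with no p-value. A fold on this scale understates the change of low genes. The design was fixed with no test, because a column holds a whole group. After the columns had been seen to separate, limma 3.58.1 (R 4.3.3, trend, 7 residual degrees of freedom, Benjamini-Hochberg over 11621 genes at 1 FPKM or more in any column) was added, with an adjusted p threshold of 0.05. Data were also simulated for FK866 over control at late 2-cell (7231 genes). On these, limma called 79% of 100 genes raised and 68% of 100 lowered 16-fold, and 5 of 7031 unchanged ones. The altered genes were drawn only from those with a high control mean, so these shares do not apply to genes at lower levels. Library totals of 3169677 to 10003481 reads limit the precision, and bounds use a floor of 3 reads per library and cover counting error only.

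The members and lists were chosen with earlier results of these data known. Named are the members past 2-fold in each comparison, at most 8 in each direction by size, members called by limma, the highest and lowest of each of the 5 symbol groups, and the 2 largest of each other list. Values of 1 member and of 2 genes of other lists are not reported here, while counts and medians include them. Alternatives were pseudocounts of 0.1 and 5, a filter at 5 FPKM and none, centring on the median of all genes, values as deposited, reading columns by the tables of the study, leaving out each library, and limma. Python 3.11.15, pandas 2.3.3 and numpy 2.4.6 were used.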

Additional observations from a re-analysis of the deposited data

Results flagged for a closer look

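By the column headers, the FK866 effect differed between the 4-cell and late 2-cell stages for 3 members, by an interaction term in limma adjusted over all genes. The effect at 4-cell minus that at late 2-cell was -4.91 for Snrpb (SE 0.89, adjusted p = 0.00899), -2.91 for Sf3b1 (SE 0.77, adjusted p = 0.0432) and -2.76 for Srsf6 (SE 0.67, adjusted p = 0.0314), on the log2 scale, with 9.94% of all genes called. The effect of NMN over FK866 differed by 7.04 for Snrpb (SE 0.97, adjusted p = 0.00332), with 5.89% of all genes called. The 4-cell FK866 and FK866+NMN columns hold 1 library each, so the 4-cell effect of NMN compares 1 library with 1. These p-values assume that lone libraries vary like those of the other columns, and the members called, 3 and 1 of 30, are near or below the share among all genes. With columns read by the tables of the study, 0 members were called by limma for either effect, with 2 and 4 at an unadjusted p under 0.05, and 0.0% and 0.241% of all genes were called. The share of all genes at that unadjusted p is not given here.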

How the results depend on the processing

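No paired analysis was possible because the columns carry no replicate numbers. The counts in this paragraph for other pseudocounts, centring and left-out libraries come without the share of all genes under that setting. By limma, the members called numbered 7 from early to late 2-cell, against 18 past 2-fold. The same pair of counts was 0 and 10 for FK866 at late 2-cell, 2 and 15 for FK866+NMN over control, 3 and 11 for FK866+NMN over FK866, 2 and 11 from late 2-cell to 4-cell, 7 and 23 for FK866 at 4-cell, 0 and 11 for FK866+NMN over FK866 at 4-cell, 2 and 8 for TSA and 2 and 7 for Sirt1. A pseudocount of 5 gave 6 for FK866+NMN over FK866 at late 2-cell, 6 from late 2-cell to 4-cell and 4 for TSA, a pseudocount of 0.1 gave 11 for Sirt1, and centring gave 14 for TSA and 14 for Sirt1. Leaving out libraries gave 17 to 19 from early to late 2-cell, 9 to 14 for FK866, 13 to 22 for FK866+NMN over control, 13 to 18 over FK866, 10 to 11 from late 2-cell to 4-cell, 21 to 23 for FK866 at 4-cell, 8 to 9 for TSA and 10 to 13 for Sirt1.

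Reading columns by the tables gave 3 members for FK866 at 4-cell, 1 for FK866+NMN over FK866 at 4-cell and 18 for TSA. Directions turned there for FK866 at 4-cell in 12 of the 23 members past 2-fold by the headers: Srsf11 (1.014), Sf3b4 (0.70), Snrpd2 (0.77), Snrpa (0.43), Snrpert (0.36), Prpf18 (-0.39), Prpf3 (0.51), Prpf31 (0.20), Prpf6 (0.93), Sf3a1 (0.65), Sf3b1 (0.62) and Snrpb (0.0103). For FK866+NMN over FK866 they turned in Prpf18 (0.0025), Prpf3 (-0.37), Prpf6 (-0.38), Sf3a1 (-0.25) and Snrpb (-0.12). For TSA they turned in Prpf4 (-0.22), Snrpa1 (-3.57), Snrpb (-2.38), Snrpb2 (-1.61), Snrpd3 (-0.83) and Srsf6 (-0.997), and for Sirt1 in Prpf31 (-0.12), Sf3b1 (-0.64), Snrpd2 (-0.18) and Srsf9 (-2.0). Prpf3, for FK866+NMN over FK866 at late 2-cell, ran from -1.21 to 2.52 with single libraries left out. These readings compare different columns. Which reading is right was not settled by these files.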
